A study of Mus musculus with 8 samples.

Results

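The genes that make, break down and bind hyaluronan were examined in primary cardiac fibroblasts of the mouse under TGF-β. The set holds 10 of the 22274 genes in the table. They were selected by name around Cemip, which was chosen because its fall between the groups was among the largest, and the other 9 were chosen for their place in hyaluronan biology. The values of Cemip are therefore given as a description without a test.

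Hyaluronan is a long unbranched sugar polymer of the extracellular matrix. It is extruded through the plasma membrane by hyaluronan synthases, cut by hyaluronidases and by the Cemip proteins, and organised by proteins that bind it. In the heart, fibroblasts are a main source of this matrix, and hyaluronan with versican accumulates in injured and remodelling tissue.

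RNA-seq was performed on 8 libraries of mouse heart fibroblasts, all exposed to TGF-β, a cytokine that turns fibroblasts into contractile, matrix-secreting myofibroblasts. The legend of the RNA-seq experiment gives a dose of 5 ng/ml for 24 h. The labels place 4 libraries in the group GFP, which carried the control virus, and 4 in the group OEIRF7, in which IRF7, an interferon regulatory transcription factor, was overexpressed. The paper describes adenoviral vectors and lists for them a CMV promoter with a human IRF7 sequence. The deposited design speaks of an adeno-associated virus, and the only such IRF7 vector the paper lists carries mouse Irf7 under the periostin promoter. Neither the age, sex and strain of the mice nor whether replicates were separate cultures is given by the labels, so p-values measure the spread between these libraries only. The figure legend ends with 3 biological replicates and does not say whether this covers the RNA-seq panels. As 4 libraries per group were deposited, it is not known whether all 4 are separate replicates.

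Total counts ranged from 24454801 to 28658826 per library. The counts of mouse Irf7 were 2861, 3680, 2272 and 3291 in the libraries labelled GFP and 385, 421, 380 and 404 in those labelled OEIRF7. A human IRF7 sequence need not be counted under the mouse gene, and with that vector these counts do not check the label. With a mouse Irf7 vector they would check it and go against it. Which vector was used could not be settled, so GFP and OEIRF7 stand below for the libraries labelled so, and all directions rest on those labels. Of 9 fibroblast markers, 2 were higher, 4 were lower and 3 did not pass the test, with a summed level of 13550 to 13990 CPM (counts scaled to library size) in GFP and 12600 to 13600 CPM in OEIRF7. Of 6 myofibroblast markers, 5 were lower and 1 was higher, with 11910 to 12600 against 9296 to 10170 summed CPM. Cardiomyocyte markers summed to 9.88 to 13.6 against 7.26 to 9.42 CPM, and 5 of 7 had at most 3 counts in every library. Macrophage markers were higher for 3 of 7 genes, with 268 to 319 against 326 to 363 summed CPM. The 6 endothelial markers gave 3 higher and 1 lower (203 to 216 against 206 to 231 summed CPM). The 5 tested mural markers gave 3 higher and 1 lower (1359 to 1484 against 1277 to 1430 summed CPM), and the 6 epicardial markers gave 2 higher and 2 lower (151 to 159 against 105 to 119 summed CPM). By the same test, 29.0% of all tested genes were higher and 29.9% were lower. No marker was at 0 in all 8 libraries, and the part of these marker differences in the results was not tested. In bulk RNA, fewer cells of a type and less RNA per cell cannot be told apart.

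Of the 10 genes, upstream sequences are shown for those with the lowest OEIRF7 level relative to GFP (Cemip) and the largest rise (Cd44). Tnfaip6, with the most motif matches, is shown too. RefSeq promoter windows of 300 bases, from 250 before to 50 after the start (GRCm38.p6), were found for 8 of the 10 genes, all but Has2 and Has3. Only the bases before both the RefSeq start and the annotated gene are printed, in the direction of transcription. They cover chr7:84086506-84086755 on the minus strand for Cemip, chr2:102901666-102901915 on the minus strand for Cd44, and chr2:52037863-52038008 on the plus strand for Tnfaip6. Capitals mark matches to the motifs searched.
Cemip: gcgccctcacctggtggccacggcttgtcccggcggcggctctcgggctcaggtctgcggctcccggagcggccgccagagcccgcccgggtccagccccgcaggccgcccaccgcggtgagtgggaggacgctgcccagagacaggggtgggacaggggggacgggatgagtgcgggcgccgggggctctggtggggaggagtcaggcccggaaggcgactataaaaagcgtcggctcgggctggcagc
Cd44: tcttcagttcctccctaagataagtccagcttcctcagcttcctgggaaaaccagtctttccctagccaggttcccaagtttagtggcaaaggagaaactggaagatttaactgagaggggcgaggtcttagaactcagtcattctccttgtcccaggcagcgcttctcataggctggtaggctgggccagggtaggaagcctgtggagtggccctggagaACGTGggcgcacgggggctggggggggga
Tnfaip6: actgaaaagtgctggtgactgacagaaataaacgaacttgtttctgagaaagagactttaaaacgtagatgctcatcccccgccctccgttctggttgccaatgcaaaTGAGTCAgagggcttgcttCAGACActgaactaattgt

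5 motifs were searched on both strands of each whole 300-base window. They were the IRF element GAAANNGAA, the AP-1 site TGANTCA, the CAGA box CAGACA bound by SMAD proteins, the hypoxia response core ACGTG and the TEAD motif GGAATG. Of 32851 RefSeq windows of this length, these were present in 8.56%, 7.81%, 21.0%, 19.6% and 14.7%, in that order. None of the 8 windows held the IRF element, and those of Cemip, Vcan and Hapln1 held none of the 5 motifs. The printed Cd44 stretch held ACGTG 29 bases before the start. In the printed Tnfaip6 stretch, TGAGTCA lay 142 bases and CAGACA 123 bases before the start, and its window held a TEAD match outside the printed bases. The windows of Has1 and Hyal1 each held a CAGA box, and that of Hyal2 a TEAD match. The Cemip window was 73.7% G and C, against 47.0% for Tnfaip6 and a median of 52.7% over all windows. The windows of Hapln1 (chr13:89540386-89540685) and Hyal2 (chr9:107568913-107569212) lie inside the annotated genes, so they do not show the sequence upstream of these genes. A match is a description of letters, and a window without one says nothing about the factor.

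Within the set, the receptor Cd44, the proteoglycan versican and the main synthase Has2 were higher in OEIRF7, while the breakdown gene Cemip and the link protein gene Hapln1 were several-fold lower. By edgeR's quasi-likelihood test, with p adjusted over the 13533 genes tested, 5 of the 9 genes other than Cemip were higher (Has2, Hyal2, Cd44, Tnfaip6 and Vcan). The same call was made for 29.0% of all tested genes. Hyal1 and Hapln1 were lower, 2 of 9, against 29.9% of all tested genes, and Has1 and Has3 did not pass the test. Cd44 alone was higher by a log2 fold change over 1 (background 4.66%), and Hapln1 alone was lower by as much (background 3.89%). The CPM values of the groups did not overlap for 7 of the 9 genes, which was also true of 53.8% of all tested genes. All 10 genes passed the filter on low counts.

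**Figure D1:**
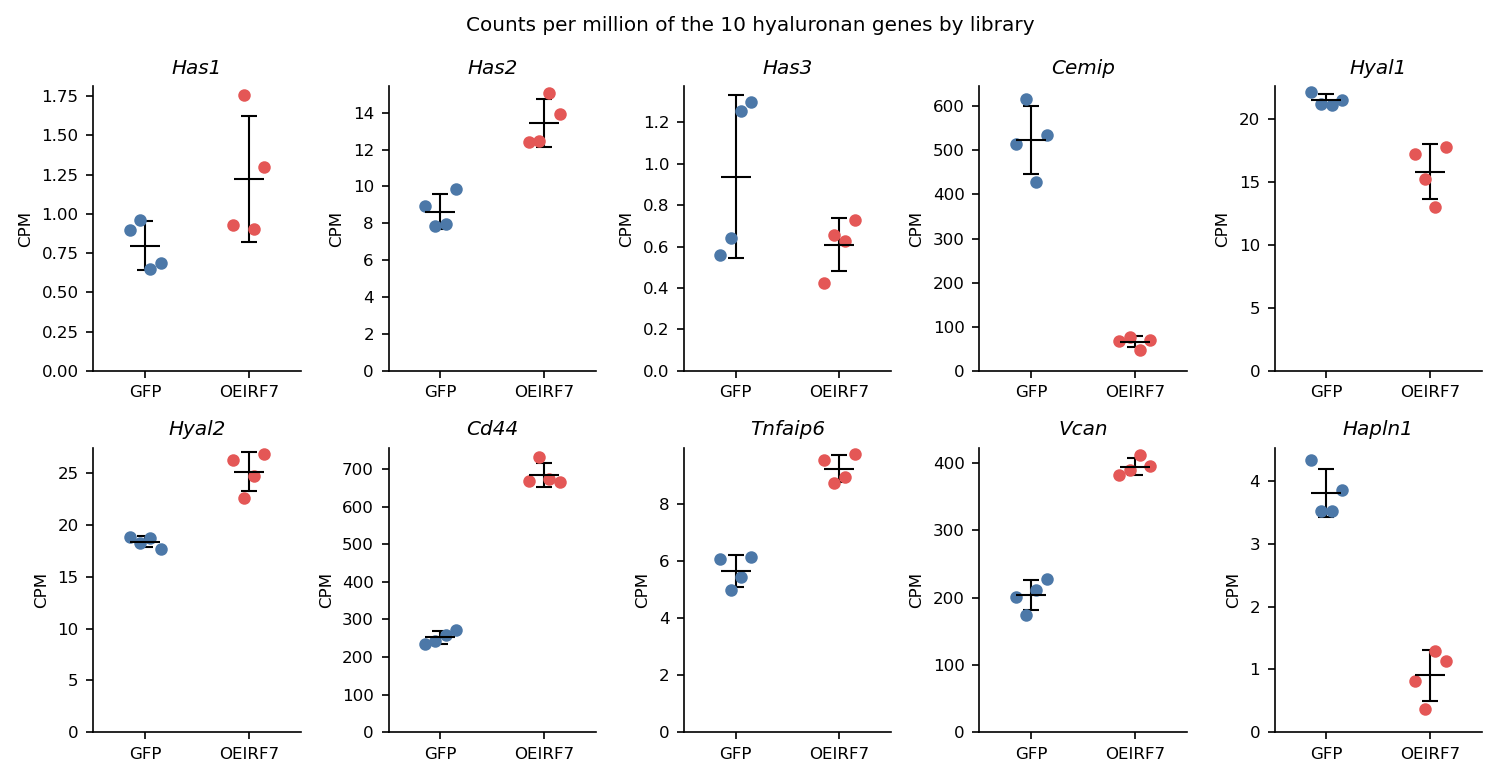
CPM, counts scaled to library size (y axis, each panel from 0) of the 10 genes in the 4 GFP and 4 OEIRF7 libraries; points are libraries in replicate order, the horizontal mark is the mean and the bar the SD. Cemip had a mean of 524 CPM in GFP and 66.0 CPM in OEIRF7, and Cd44 had 253 and 685 CPM, while the points of Has1 and Has3 overlap between groups.

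Of the synthases, Has2, the enzyme that makes long hyaluronan chains and is the main synthase of many fibroblasts, was higher in OEIRF7. Its level was 8.92, 7.85, 7.94 and 9.84 CPM in the GFP libraries and 12.4, 12.4, 15.1 and 13.9 CPM in the OEIRF7 libraries. Every OEIRF7 library lay above every GFP library. The log2 fold change was 0.64 (SE 0.0939, a 1.55-fold rise, edgeR adjusted p = 3.7e-05). On chromosome 15 (56665627 to 56694539, minus strand, GRCm38), the span of Has2 overlaps that of the opposite-strand transcript Has2os. The strand setting of the counting is not given in the sources used here, so reads in any shared exons cannot be told apart. The same limit may hold for Hyal1 (Gm16343), Hyal2 (Gm9917), Cd44 (Gm23731), Vcan (Gm16318 and Gm4117) and Hapln1 (Gm8546), each overlapped on the opposite strand. Overlaps were found from whole gene spans, introns included, and whether exons are shared was not examined.

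Has1 and Has3, the other two synthases, had few counts. Has1 had 24, 24, 16 and 18 counts in the GFP libraries and 24, 51, 23 and 32 in the OEIRF7 libraries. OEIRF7 replicate 2 was the highest of the 8, and the ranges overlapped. The log2 fold change of Has1 in CPM was 0.62 (SE 0.277, edgeR adjusted p = 0.068). Has3 had 15, 16, 31 and 34 counts in the GFP libraries and 11, 19, 16 and 18 in the OEIRF7 libraries. GFP replicates 3 and 4 lay above all other libraries, GFP replicates 1 and 2 lay within the OEIRF7 range, and the groups overlapped. The log2 fold change was -0.62 (SE 0.329, edgeR adjusted p = 0.12). A change of Has1 or Has3 was thus not resolved at this depth. Has3 shares part of its locus with Chtf8 on the opposite strand, which was at 113 ± 4.21 and 120 ± 7.11 CPM (SD, n = 4 per group, edgeR adjusted p = 0.14).

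Levels of different genes were compared in FPKM, which is scaled for gene length. Has2 held 78.5% ± 2.29 of the summed synthase FPKM in GFP and 81.6% ± 4.996 in OEIRF7 (SD, n = 4 per group). The share differed by 3.15 percentage points, which was within the spread of the libraries (exact two-sided permutation test, p = 0.34). The summed FPKM of the 3 synthases was 2.59, 2.43, 2.40 and 2.86 in GFP and 3.51, 3.95, 4.12 and 4.12 in OEIRF7. The sums did not overlap, with a log2 difference of 0.61 (p = 0.029 by the same exact test, the lowest value possible for 4 against 4 libraries). Groups that do not overlap always give this value. As Has2 made up most of each sum, the test adds no support beyond the rise of Has2.

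Enzymes that supply the sugar nucleotides of hyaluronan were examined next. Of 10 precursor genes tested, 7 rose, 2 fell (Gfpt1 and Nagk) and 1 did not pass the test (Gpi1), with a median log2 fold change of 0.32 against 0.00 over all tested genes, of which 29.0% rose and 29.9% fell. Ugdh, which oxidises UDP-glucose to UDP-glucuronate, was at 203, 193, 215 and 220 CPM in GFP and 585, 605, 602 and 585 CPM in OEIRF7. Its groups were far apart, and the log2 fold change was 1.52 (SE 0.0399, edgeR adjusted p = 1.2e-12). Gfpt2, an isoform of the entry enzyme of the hexosamine pathway, was at 276 ± 8.73 CPM in GFP and 720 ± 51.4 CPM in OEIRF7 (SD, n = 4; log2 fold change 1.38, SE 0.0457, edgeR adjusted p = 1.1e-11). Its paralog Gfpt1 was lower, at 198 ± 3.97 CPM in GFP and 146 ± 0.811 CPM in OEIRF7 (log2 fold change -0.44, edgeR adjusted p = 1.5e-08). These enzymes also feed other glycans, and hyaluronan itself was not measured.

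**Figure D2:**
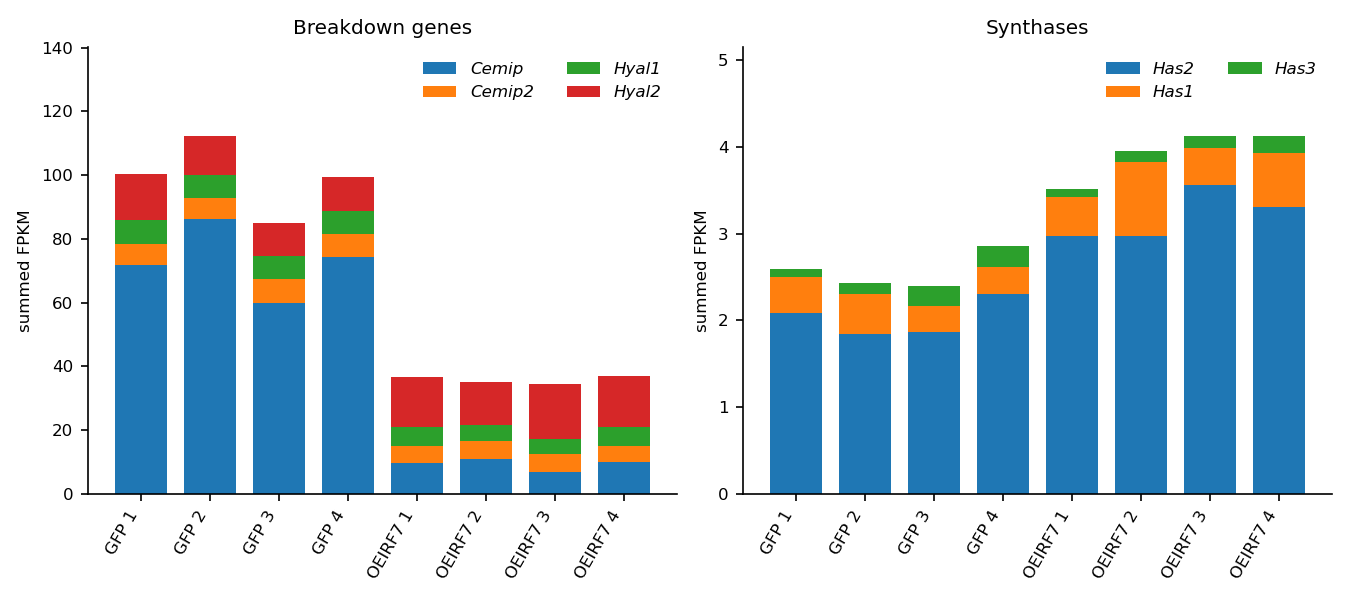
Summed FPKM (y axis, from 0) per library of the breakdown genes Cemip, Cemip2, Hyal1 and Hyal2 (left) and of the synthases Has2, Has1 and Has3 (right); each stacked bar is 1 library. The breakdown sum was 84.9 to 112 FPKM in GFP and 34.6 to 37.0 FPKM in OEIRF7, and the Cemip part of the bars was 73.0 FPKM on average in GFP and 9.37 FPKM in OEIRF7.

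Among the breakdown genes, Cemip, whose protein binds and depolymerises hyaluronan outside lysosomes, had the lowest levels in OEIRF7 relative to GFP. Its level was 515, 617, 429 and 535 CPM in the GFP libraries and 67.3, 77.7, 48.1 and 70.8 CPM in the OEIRF7 libraries. In each group replicate 2 was highest and replicate 3 lowest, and the groups were far apart. The log2 fold change was -2.99 (SE 0.127), which is 7.94-fold lower. Cemip lies on chromosome 7 (83932857 to 84086502, minus strand), and no annotated gene overlaps it. Among all 13533 tested genes, Cemip was rank 10 by the size of the fall. Among the 10320 genes with a mean above 5 CPM it was rank 1, with Map2 (-2.98) and Irf7 (-2.96) next on the log2 fold change scale.

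Cemip2, a membrane hyaluronidase related to Cemip, was lower by a smaller amount. It was at 45.3, 44.4, 50.1 and 47.4 CPM in GFP and 36.0, 35.1, 38.6 and 32.4 CPM in OEIRF7. The groups did not overlap, and the log2 fold change was -0.40 (SE 0.0568, edgeR adjusted p = 2.7e-05).

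The acid hyaluronidases Hyal1 and Hyal2 moved in opposite directions. Hyal1, the lysosomal enzyme that cuts hyaluronan into small fragments, was at 22.1, 21.2, 21.1 and 21.5 CPM in GFP and 17.2, 15.2, 13.0 and 17.8 CPM in OEIRF7. All OEIRF7 libraries were lower, with replicate 3 the lowest, and the log2 fold change was -0.44 (SE 0.0835, edgeR adjusted p = 0.00034). Hyal2, a cell-surface enzyme that starts the cleavage of long chains, was at 18.8, 18.3, 18.7 and 17.6 CPM in GFP and 26.2, 22.6, 24.7 and 26.8 CPM in OEIRF7. All OEIRF7 libraries were higher in CPM, and the log2 fold change was 0.45 (SE 0.0634, edgeR adjusted p = 2.4e-05). In FPKM the ranges of Hyal2 overlapped, from 10.4 to 14.2 in GFP and 13.6 to 17.3 in OEIRF7.

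The genes are neighbours on chromosome 9 on the plus strand, Hyal2 at 107567945 to 107572779 and Hyal1 at 107576927 to 107581710, with 4.15 kb between them. Hyal1 overlaps Hyal3 and Naa80 on the same strand, so reads shared between them could not be assigned with certainty. Naa80 was at 18.0 ± 0.602 and 17.0 ± 1.29 CPM (SD, n = 4 per group, log2 fold change -0.08, edgeR adjusted p = 0.30). Hyal3 had 7 to 8 counts in the GFP libraries and 11 to 17 in the OEIRF7 libraries (edgeR adjusted p = 0.036).

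Cemip held 73.4% ± 2.89 of the summed FPKM of Cemip, Cemip2, Hyal1 and Hyal2 in GFP and 26.1% ± 4.88 in OEIRF7 (SD, n = 4 per group). The sum was 99.2 ± 11.2 FPKM in GFP and 35.9 ± 1.15 FPKM in OEIRF7. Because Cemip was chosen for its fall, the share and the sum are descriptions. The lower sum was mainly that of Cemip, whose mean went from 73.0 to 9.37 FPKM. Cemip2 went from 7.01 to 5.42 and Hyal1 from 7.29 to 5.48 FPKM, while Hyal2 went up from 11.9 to 15.6 FPKM. On the FPKM scale Hyal2 was below Cemip in every GFP library and above it in every OEIRF7 library. Of the 5 tested genes in the list of other breakdown enzymes, 1 rose (Hyal3), 2 fell (Cemip2 and the lysosomal enzyme gene Hexa) and 2 did not pass the test, Gusb among them. Among all tested genes, 29.0% rose and 29.9% fell. Hyal4 had 0 counts in all libraries, and Hyal5, Hyal6 and Spam1 were below the filter.

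**Figure D3:**
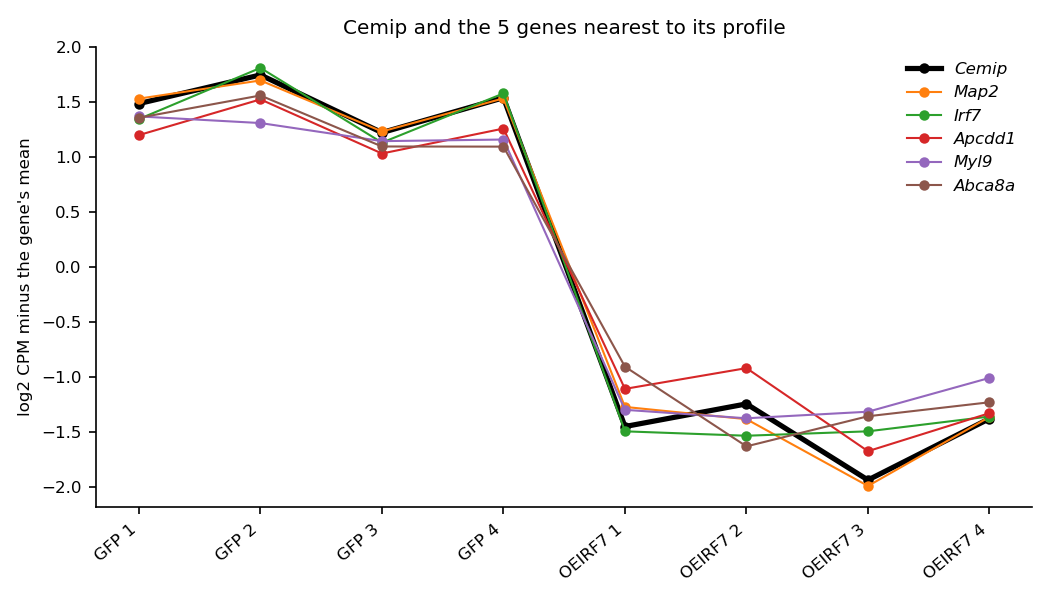
Log2 CPM minus the gene's own mean over 8 libraries (y axis) for Cemip (black) and the 5 genes nearest to it; each point is 1 library, and lines only join a gene's points. Map2 had a root mean square difference of 0.0856 from Cemip, and the lowest point of both was in OEIRF7 replicate 3. That difference was computed with a prior count of 2 added before the logarithm, which the plotted values lack.

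The profile of Cemip was set against those of the genes with a mean above 5 CPM, as the root mean square difference of centred log2 CPM over the 8 libraries. The nearest were Map2, a microtubule-binding protein gene, at 0.0856, Irf7 at 0.199, Apcdd1, a Wnt inhibitor gene, at 0.275, Myl9, a myosin light chain gene, at 0.339, and the transporter gene Abca8a at 0.374. Map2 was at 244, 273, 198 and 244 CPM in GFP and 34.9, 32.3, 21.2 and 32.8 CPM in OEIRF7. Like Cemip, Map2 was highest in replicate 2 and lowest in replicate 3 of GFP, and lowest in replicate 3 of OEIRF7. The highest OEIRF7 library was replicate 2 for Cemip and replicate 1 for Map2. Of the other 9 hyaluronan genes, Hapln1 was nearest to Cemip (0.754) and Cd44 farthest (2.23). These genes were picked for their likeness, so it is a description.

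Of the binding genes, Cd44, the main cell-surface receptor for hyaluronan, had the largest rise of the 10. Its level was 235, 243, 260 and 272 CPM in GFP and 668, 732, 674 and 665 CPM in OEIRF7. The groups were well apart, with OEIRF7 replicate 2 above the other OEIRF7 libraries. The log2 fold change was 1.44 (SE 0.0467, a 2.71-fold rise, edgeR adjusted p = 9.0e-12). Cd44 lies on chromosome 2 (102811141 to 102901665, minus strand), and gene-level counts do not separate its splice forms.

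Vcan encodes versican, a large proteoglycan that binds hyaluronan through its N-terminal domain. It was at 202, 175, 212 and 227 CPM in GFP and 382, 390, 411 and 395 CPM in OEIRF7. The OEIRF7 libraries lay close together and all above GFP, and the log2 fold change was 0.95 (SE 0.0606, a 1.94-fold rise, edgeR adjusted p = 6.2e-09).

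Tnfaip6 encodes TSG-6, a secreted protein with a link module that transfers heavy chains onto hyaluronan. It was at 6.08, 4.97, 5.43 and 6.14 CPM in GFP and 9.54, 8.72, 8.95 and 9.73 CPM in OEIRF7. Every OEIRF7 library was higher, and the log2 fold change was 0.70 (SE 0.0941, a 1.63-fold rise, edgeR adjusted p = 1.4e-05).

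Hapln1 encodes the link protein that holds hyaluronan and the versican family of proteoglycans together, and its level fell. It had 116, 88, 87 and 101 counts in the GFP libraries and 21, 11, 33 and 28 in the OEIRF7 libraries. All OEIRF7 libraries were lower, and replicate 2 was the lowest. The level fell from 3.81 ± 0.380 to 0.906 ± 0.404 CPM (SD, n = 4 per group), a log2 fold change of -2.09 (SE 0.256, 4.25-fold lower, edgeR adjusted p = 6.1e-06). The floor of 3 counts corresponds to 0.105 to 0.123 CPM, so all 8 values lay above it.

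Hapln1 and Vcan lie 43.7 kb apart on chromosome 13, at 89539796 to 89611652 (plus strand) and 89655312 to 89742509 (minus strand), and they moved in opposite directions. The ratio of Vcan to Hapln1 FPKM was 34.0, 36.6, 42.7 and 42.3 in GFP and 338, 718, 217 and 247 in OEIRF7. The OEIRF7 ratios rest on Hapln1 values of 0.07 to 0.23 FPKM, which the authors rounded to 2 decimals, so their size is coarse. The ratio of Cd44 to Vcan FPKM was 2.51 to 2.94 in GFP and 3.73 to 4.04 in OEIRF7.

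A two-sided exact test over the libraries, permuting log2 CPM, gave its lowest possible value, p = 0.029, for each of the 7 genes whose groups did not overlap. Groups of 4 libraries that do not overlap always give this value, so it adds no support for these genes. The groups did not overlap for 53.8% of all tested genes. The same exact test gave p = 0.11 for Has1 and p = 0.26 for Has3.

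**Figure D4:**
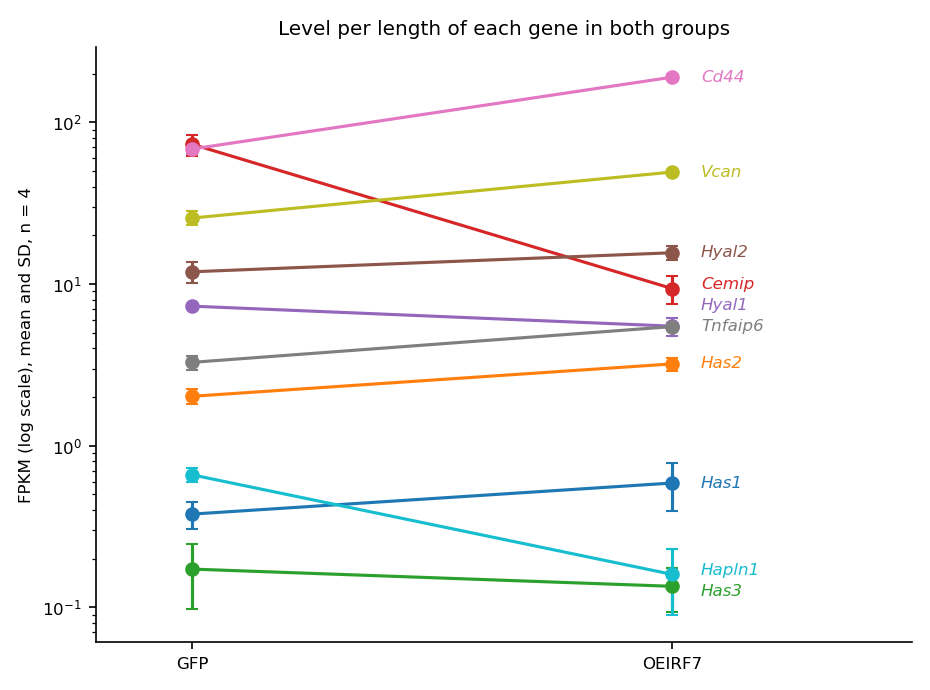
Mean FPKM (y axis, log scale) of the 10 genes in GFP and OEIRF7; points are means, bars the SD of 4 libraries, and lines join the same gene. Cemip stood at 73.0 FPKM beside Cd44 at 68.3 in GFP, and at 9.37 FPKM below Cd44, Vcan and Hyal2 in OEIRF7.

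The order of the 10 genes in FPKM was Cemip, Cd44, Vcan, Hyal2, Hyal1, Tnfaip6, Has2, Hapln1, Has1 and Has3 in GFP. Only Cemip (73.0 ± 10.8) and Cd44 (68.3 ± 4.38) had overlapping ranges as neighbours in that order (SD, n = 4). In OEIRF7 the order was Cd44 (189.9 ± 8.56), Vcan (49.2 ± 1.29), Hyal2 (15.6 ± 1.54), Cemip (9.37 ± 1.84), Hyal1 (5.48 ± 0.689), Tnfaip6 (5.45 ± 0.290), Has2 (3.20 ± 0.287), Has1 (0.588 ± 0.195), Hapln1 (0.160 ± 0.0707) and Has3 (0.135 ± 0.0412). There, the ranges of Hyal1 and Tnfaip6 overlapped, as did those of Hapln1 and Has3. Both orders and the overlaps rest on the deposited FPKM and can change with the gene length used. In GFP, Hyal1 had a higher mean than Hyal2 in CPM (21.5 against 18.3), with annotated exons of 3777 and 3293 bases.

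The wider pathway was read from 7 lists with 51 genes, chosen with earlier results of these data known. Of the 42 that passed the filter, 17 rose, 11 fell and 14 did not pass the test, with a median log2 fold change of 0.22 against 0.00 over all tested genes. Past a log2 fold change of 1, 2 rose (Ugdh and Gfpt2) and 5 fell (Hmmr, Acan, Adamts5, Adamts9 and Ezr). These counts stand against the backgrounds of 29.0% and 29.9% and, past a log2 fold change of 1, of 4.66% and 3.89%.

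**Figure D5:**
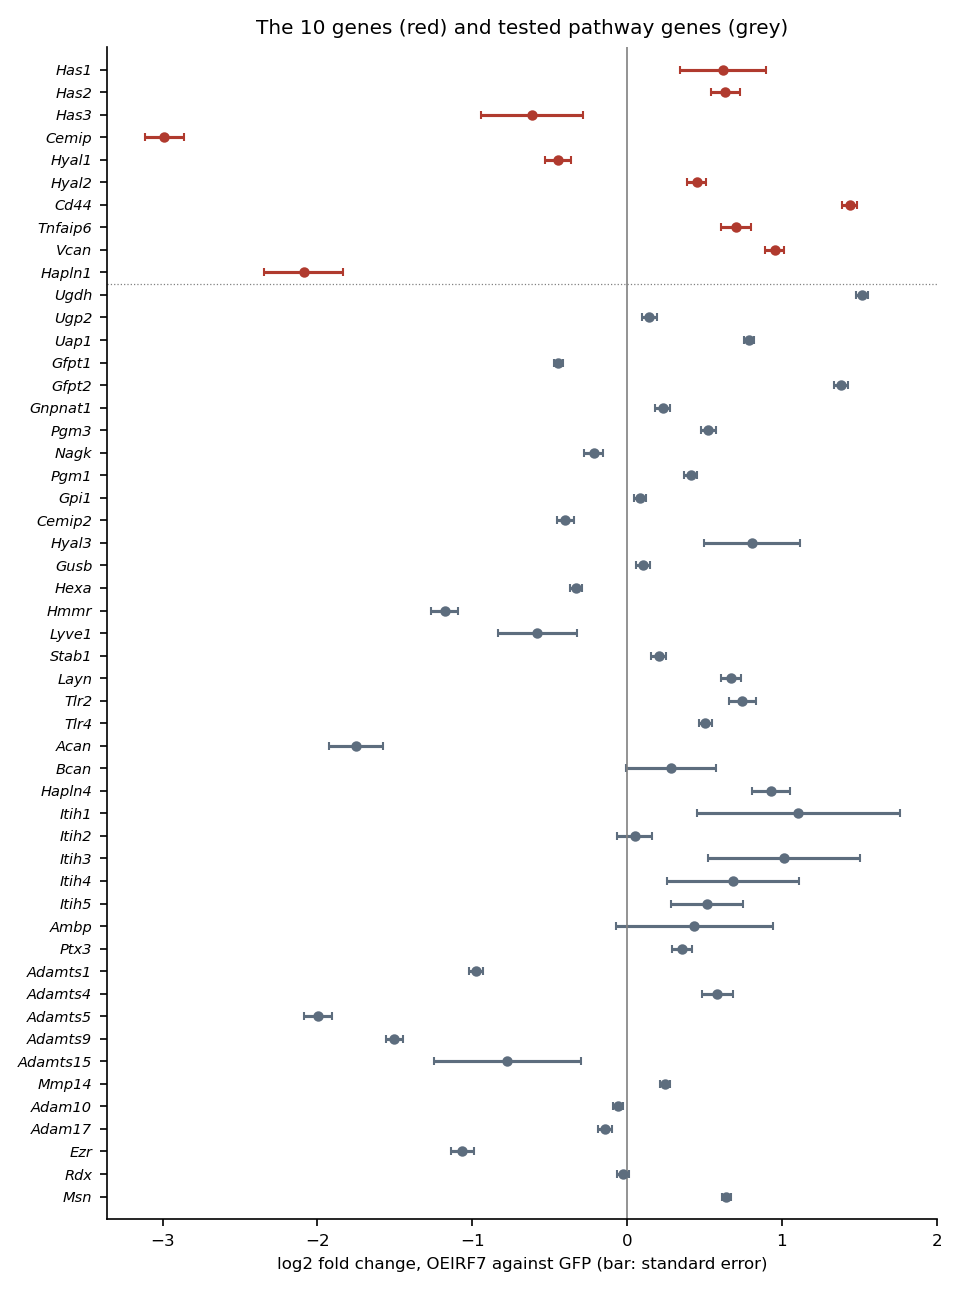
Log2 fold change of OEIRF7 against GFP (x axis) for the 10 genes (red) and the tested genes of the pathway lists (grey, all but 1 of them), in list order; bars are standard errors from edgeR. Cemip (-2.99), Hapln1 (-2.09) and Adamts5 (-1.99) lie farthest left, and Ugdh (1.52) and Cd44 (1.44) farthest right.

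Of the 5 tested proteases that cleave versican, Adamts4 rose, Adamts1, Adamts5 and Adamts9 fell, and Adamts15 did not pass the test, against 29.0% of all tested genes higher and 29.9% lower. Adamts5 was at 509, 547, 482 and 535 CPM in GFP and 139, 136, 98.9 and 146 CPM in OEIRF7. As for Cemip, replicate 2 was the highest in GFP and replicate 3 the lowest in both groups. In OEIRF7, however, replicate 2 was the highest for Cemip and replicate 4 for Adamts5. The log2 fold change was -1.99 (SE 0.0906, edgeR adjusted p = 1.9e-10). Adamts9 fell from 44.8 ± 1.93 to 15.8 ± 0.842 CPM and Adamts1 from 257 ± 10.5 to 131 ± 8.35 CPM (SD, n = 4 per group), with log2 fold changes of -1.50 and -0.97 (edgeR adjusted p = 3.0e-11 and 2.6e-10). The summed level of the protease list, Adamts20 included, was 779 to 863 CPM in GFP and 267 to 296 CPM in OEIRF7, while their substrate gene Vcan rose.

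Of the 3 tested hyalectan and link protein genes beside Vcan and Hapln1, Acan fell, Hapln4 rose and Bcan did not pass the test. The shares over all tested genes were 29.0% higher and 29.9% lower. Acan, the proteoglycan of cartilage, had 118, 101, 90 and 84 counts in GFP and 34, 33, 28 and 24 in OEIRF7. The groups did not overlap, and the log2 fold change was -1.75 (SE 0.175, edgeR adjusted p = 7.1e-07).

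Of the 6 other receptor genes tested, Layn, Tlr2, Tlr4 and Stab1 rose, Hmmr fell and Lyve1 did not pass the test. These compare with 29.0% of all tested genes higher and 29.9% lower. Hmmr, which binds hyaluronan and also the mitotic spindle, was at 11.5, 11.6, 12.8 and 12.5 CPM in GFP and 5.58, 5.65, 5.34 and 4.74 CPM in OEIRF7. All OEIRF7 libraries were lower, with a log2 fold change of -1.18 (SE 0.0862, edgeR adjusted p = 2.7e-08). All 10 genes of a mitosis list were lower too, as were 29.9% of all tested genes, with 90.6 to 95.7 summed CPM in GFP and 34.8 to 41.0 in OEIRF7, and their relation to Hmmr was not tested.

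Of the 6 genes for CD44 shedding and anchoring, Mmp14 and the anchor gene Msn rose, Adam17 and Ezr fell, and Adam10 and Rdx did not pass the test. Over all tested genes, 29.0% rose and 29.9% fell. Ezr, which encodes the membrane to actin linker ezrin, fell from 151 ± 11.3 to 72.3 ± 8.72 CPM (SD, n = 4 per group), a log2 fold change of -1.06 (SE 0.0745, edgeR adjusted p = 1.7e-08). In contrast to Ezr, its paralog Msn, the moesin gene, rose by a log2 fold change of 0.64 (edgeR adjusted p = 3.2e-10).

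Of the 7 genes of heavy chain transfer and matrix cables, the pentraxin gene Ptx3 alone passed the test, from 32.6 ± 2.57 to 41.7 ± 3.38 CPM (SD, n = 4 per group; log2 fold change 0.36, SE 0.0672, edgeR adjusted p = 0.00036). Higher calls made up 29.0% of all tested genes and lower calls 29.9%. Of the heavy chain genes, Itih2 had 195 to 262 counts in every library, with 8.39 ± 1.13 CPM in GFP and 8.70 ± 1.19 CPM in OEIRF7 (SD, n = 4 per group, edgeR adjusted p = 0.74). The other members were sparser. In GFP replicate 1, Itih1, Itih3, Itih4 and Ambp had 0, 0, 5 and 1 counts. In the other 7 libraries Itih4 had 37 to 84 counts and Ambp 21 to 52, so GFP replicate 1 stood apart from the other GFP libraries for these genes.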

How the data were processed

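RNA of 8 libraries of cardiac fibroblasts was sequenced. The authors trimmed reads with Trimmomatic, mapped them with HISAT2 to GRCm38 and deposited raw counts per gene from HTSeq-count. The authors also deposited FPKM from Cufflinks, rounded to 2 decimals. Tool versions and the strand setting of the counting are not given in the sources used here, and labels and paper differ on the library kit. The authors' own group means, fold changes, p-values and FDR were not used. The members and lists were chosen with earlier results of these data known.

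Counts were tested in R 4.3.3 with edgeR 4.0.16 (filterByExpr, TMM factors of 0.989 to 1.01, glmQLFit, glmQLFTest, no covariate), with Benjamini-Hochberg adjustment over 13533 genes and a threshold of 0.05. CPM were scaled by TMM. FPKM served for levels between genes, shares and sums, with exact permutation tests over libraries. Pairs of replicates differed by more than sampling noise (chi-square per degree of freedom 2.96 to 10.4). The floor of 3 counts covers counting error only.

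Named genes were the 10 members, genes of the pathway lists past the threshold and a log2 fold change of 1, Cemip2, Hmmr, Ugdh, Ptx3 and Adamts1, and the 5 nearest profiles to Cemip. Others, such as Gfpt1, Msn, Itih4 and Ambp, were named with their values in view. As alternatives, DESeq2 1.42.0, limma 3.58.1 on log2(FPKM + 1) and log2(FPKM + 0.1), other scalings and filters, a replicate block and leaving out each library were run. The fits were tested on simulated data. Coordinates are from GENCODE M21, promoters from RefSeq. Symbols holding GFP in place of other letters (121) were restored by Ensembl identifier. 1 tested gene of the pathway lists is counted but not reported here by name.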

Additional observations from a re-analysis of the deposited data

Results flagged for a closer look

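In 60 groups of 4 libraries examined, 2 values lay farther from the others than Dixon's critical value for 4 samples, where chance flags about 1 in 20 groups. The Cd44 level of OEIRF7 replicate 2 was 732.1 CPM, against 665.4 to 674.0 CPM in the other OEIRF7 libraries, a gap of 0.871 of the group's range. It still lay on the same side of all GFP libraries. The ratio of Hyal2 to Hyal1 FPKM was 3.741 in OEIRF7 replicate 3, against 2.599 to 2.611 in the other OEIRF7 libraries, a gap of 0.989 of the range. That library had the lowest Hyal1 and the highest Hyal2 FPKM of its group.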

How the results depend on the processing

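Over 21 results and 332 alternative values, none changed direction, and 323 kept their side of the threshold or their size. Has1, not called at first (0.62), was called with at least 10 counts in every library (log2 fold change 0.63, edgeR adjusted p = 0.049) and without OEIRF7 replicate 3 (0.74, adjusted p = 0.042), and ranged from 0.38 to 0.74 when libraries were left out. Over all alternatives it ranged from 0.20 to 0.74, with adjusted p from 0.042 to 0.27. Has3 was called without GFP replicate 1 (-0.80, adjusted p = 0.049), with a range of -0.80 to -0.42 when libraries were left out. Over all alternatives it ranged from -0.80 to -0.045, with adjusted p from 0.049 to 0.57. Without GFP replicate 4, 2 of the 9 genes rose by a log2 fold change over 1, since Vcan reached 1.01 (range 1 to 2). With limma on log2(FPKM + 1), with or without a filter, 0 of the 9 genes fell by over 1, and 3 of the pathway genes did. The pseudocount shrinks low genes, and Hapln1 was at -0.52 there, still past the threshold of the test. The groups of Hyal2 overlapped in FPKM, so 6 of 9 genes did not overlap there, an alternative chosen after seeing the data, as was the pathway count without Hmmr (17 higher, 10 lower).

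Leaving out libraries moved the log2 fold changes between 0.58 and 0.70 for Has2, -3.08 and -2.86 for Cemip, -0.50 and -0.36 for Hyal1, 0.42 and 0.50 for Hyal2, 1.40 and 1.47 for Cd44, 0.65 and 0.74 for Tnfaip6, 0.88 and 1.01 for Vcan and -2.32 and -1.81 for Hapln1. The Has2 share moved between 1.56 and 5.30 percentage points and the synthase sum between 0.58 and 0.66 (log2).

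Same-numbered libraries correlated weakly across groups (0.0792, 0.0953, 0.138 and 0.104), each best with its own number, which is a hint from the data only. The replicate block changed no call of the 9 tested genes, and moved the pathway genes from 17 to 19 higher, from 11 to 12 lower and from 2 to 3 higher past a log2 fold change of 1. For the synthase sum, the paired exact permutation of 0.61 gave p = 0.125, the smallest that 4 pairs allow. Depth limits Has1, Has3 and Hapln1, with 11 to 51 counts in a library of OEIRF7.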
